A study of Mus musculus with 8 samples.

Results

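The comparison described here is that of wild-type mouse macrophages given lipopolysaccharide (LPS) together with EGTA for 6 h with wild-type macrophages given LPS alone for 6 h. It rests on 2 of the 8 arrays of the series, chosen by their labels, and covers 6740 of the 12394 genes that the arrays measured. LPS is a component of the outer membrane of Gram-negative bacteria, and EGTA is a molecule that binds calcium and does not readily enter cells. The series holds 8 groups of bone marrow-derived macrophages with 1 array each. They are wild-type cells with LPS and EGTA for 6 h or 24 h, wild-type cells with LPS for 6 h or 24 h, unstimulated wild-type cells, and CD14-deficient cells with LPS for 6 h or 24 h or unstimulated. CD14 is the surface protein that passes LPS to its receptor, the TLR4 complex. All mice were C57BL/6 and 6 to 8 weeks old, and their marrow was grown for 7 days in medium with M-CSF, which makes macrophages of marrow cells, and 10% serum. Smooth LPS was used at 1 µg/ml on plated cells. The label of the 24 h EGTA sample gives a concentration of 2 mM, and that of the 6 h sample names EGTA without a concentration. The series' design text states that the experiment was meant to separate effects of calcium fluxes from other effects of losing CD14 and of EGTA itself. No array of EGTA without LPS, and none of EGTA on CD14-deficient cells, was analysed. Each group is 1 array, so every difference is a description of a pair of arrays without replicates or p-values.

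Calcium is stored in the endoplasmic reticulum (ER), where chaperones and oxidoreductases that fold secreted and membrane proteins need it. Entry of calcium from outside refills this store through channels that the store sensor Stim1 opens, and a rise in cytosolic calcium activates the phosphatase calcineurin and the NFAT transcription factors. When folding in the ER falls behind, the unfolded protein response switches on chaperone and degradation genes through the factors Xbp1 and Atf6. Another arm of that response, and amino acid shortage, act through the factor Atf4 on genes of amino acid supply and stress.

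Values are Affymetrix intensities, the brightness of a probe set, made comparable by giving all 8 arrays the same distribution. An intensity of 38.4, the 40th percentile of all values, served as a floor. A gene was compared where its brighter array of the pair exceeded 88.2, the median of all values, and it was called higher or lower at a difference of at least 2-fold. Differences are log2 of EGTA with LPS minus LPS alone. The deposited arrays differed in brightness before this step, with a mean trimmed by 2% of 314 with EGTA at 6 h and 527 with LPS alone at 6 h, the lowest and the highest of the 8. With EGTA the RNA integrity number was 9.7, the actin signal ratio of 3' to 5' probe sets 1.27 and the yield of labelled cRNA 64.7 µg. With LPS alone they were 9.3, 1.21 and 76 µg. Their part in the results was not tested. The macrophage markers matched the label on both arrays. All 13 were compared, their summed intensity was 103291 with EGTA and 105758 without, and none differed 2-fold. Defining markers of other cells lay at the floor on both arrays for 8 of 9 B cell, 8 of 11 neutrophil, 6 of 7 dendritic cell, 10 of 10 fibroblast and 7 of 8 erythroid and mast cell genes. In such bulk samples fewer cells of a type and less RNA per cell cannot be told apart.

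Few genes stood apart on the EGTA array. Of the 6740 genes compared, 37 were higher (0.549%) and 18 lower (0.267%), and the median of all genes was 0.01. The central 95% of genes lay between -0.58 and 0.60. Calls were most frequent among dim genes. Where the brighter array lay between 88.2 and 200, 19 genes were higher and 12 lower, 2.18% of 1424. Above 1000, 8 genes were higher and 1 lower, 0.439% of 2050. With the intensities taken as deposited the median of all genes moved to -0.78, so 2 genes were higher and 1353 lower, and 0.1% of calls were increases in place of 67.3%. Relative to that median 23 genes were higher and 15 lower, and all differences here are to be read relative to the bulk of genes.

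**Figure D1:**
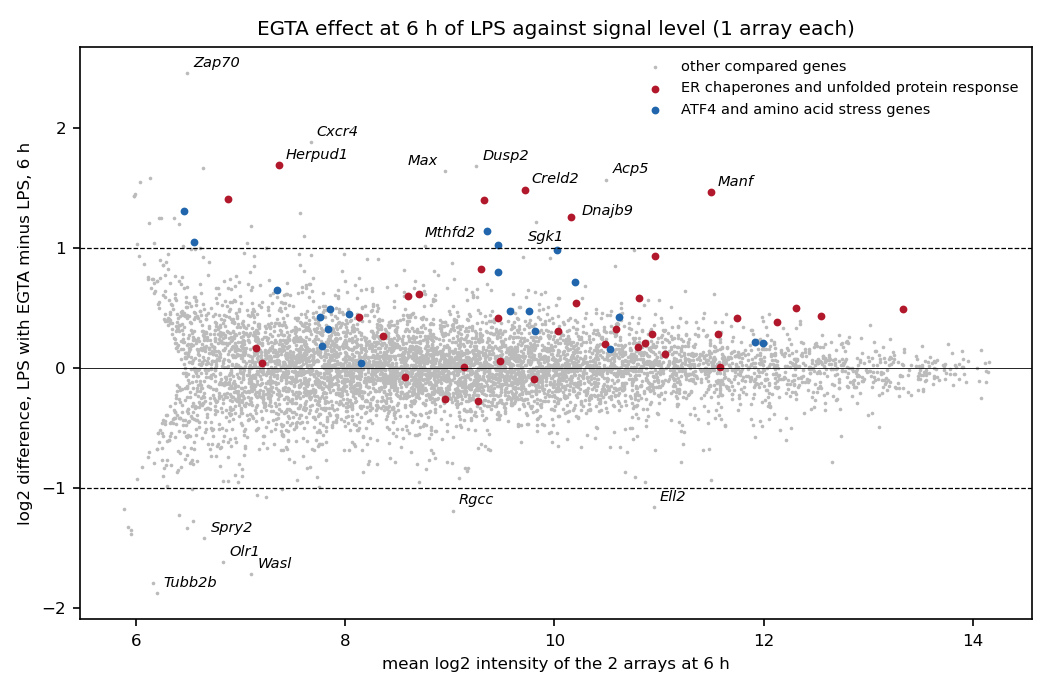
Each point is a gene at 6 h of LPS, with the mean log2 intensity of the 2 arrays on the horizontal axis and the log2 difference, LPS with EGTA minus LPS alone, on the vertical axis. Dashed lines mark 2-fold. Red points are ER chaperone and unfolded protein response genes and blue points ATF4 and amino acid stress genes, and most of both lie above 0. Dim genes at the left scatter more widely than bright ones.

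Relative to the bulk of genes, those of ER protein folding stood higher with EGTA. Of 37 compared members of a list of ER chaperones and unfolded protein response genes, 6 were called higher and 0 lower, beside 0.549% and 0.267% over all genes. The list's median difference was 0.39, beside 0.01 over all genes. Among the members 33 of 37 lay above 0, beside 50.9% of all genes, and 11 were at least 1.5-fold higher, beside 2.74%. As deposited the list's median was -0.38 beside -0.78 over all genes, so its sign turned. Its distance from the median of all genes was 0.38, and it ran from 0.37 to 0.41 over 8 alternative settings. Summed over the 39 measured members, intensities were 76705 with EGTA, 55590 with LPS alone and 71323 in unstimulated wild-type cells. By this sum the EGTA array lay nearer the resting level than the LPS array did.

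Herpud1, an ER membrane protein of the pathway that removes misfolded proteins, had an intensity of 298 with EGTA and 91.9 without, a difference of 1.70. Its value with EGTA was the highest of the 8 arrays and its value with LPS alone the lowest, and the other 6 lay between 153 and 245. A second Herpud1 probe set read 205 with EGTA and 52.4 without. Manf, a protein of the ER lumen that is also secreted under ER stress, was the brightest called member, at 4812 with EGTA and 1737 without, 2.77-fold higher. The unstimulated wild-type array read 3077, so LPS alone lay below and EGTA with LPS above the resting level. Creld2, another stress-induced protein of the ER lumen, reached 1413 with EGTA against 504 without, 2.80-fold higher.

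Components of ER-associated degradation and Hspa5 co-chaperones followed. Syvn1, the ubiquitin ligase of the degradation complex, had 1046 with EGTA and 395 without, 2.65-fold higher. Dnajb9, a co-chaperone of Hspa5, had 1772 with EGTA and 742 without, 2.39-fold higher. The thioredoxin-like gene Txndc11 had 192 with EGTA and 72.2 without, and both values are dim. Syvn1 and Dnajb9 had their highest intensity of the 8 arrays with EGTA at 6 h. Just under 2-fold were the disulfide isomerase gene Pdia6, at 2763 with EGTA and 1450 without (0.93), and Dnajc3, at 839 with EGTA and 473 without (0.83).

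The abundant chaperones differed by less. Hspa5, the main ER chaperone and calcium-binding protein, read 12234 with EGTA and 8689 without, a difference of 0.49, and the other 6 arrays lay between 7448 and 8388. Scaling the arrays to equal medians in place of equal distributions gave 0.99 for Hspa5, so the size of the difference at this brightness depended on the normalization. Xbp1, the transcription factor of the response, had a difference of 0.42 and Hsp90b1 one of 0.50. The calcium-binding chaperone gene Calr stood at 0.43, and its membrane-bound relative Canx at 0.01. Below 0 were Sil1 (-0.08), Ero1a (-0.09), Ufd1 (-0.25) and Hyou1 (-0.28). Over the list the EGTA array at 6 h was the highest of the 8 arrays for 10 members (27.0%) and the LPS array at 6 h the lowest for 12 (32.4%), beside 10.2% and 11.5% of all genes compared. The same pair of arrays defines the difference, so these shares describe the list and are no independent evidence. From which array of the pair the difference came cannot be told apart.

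**Figure D2:**
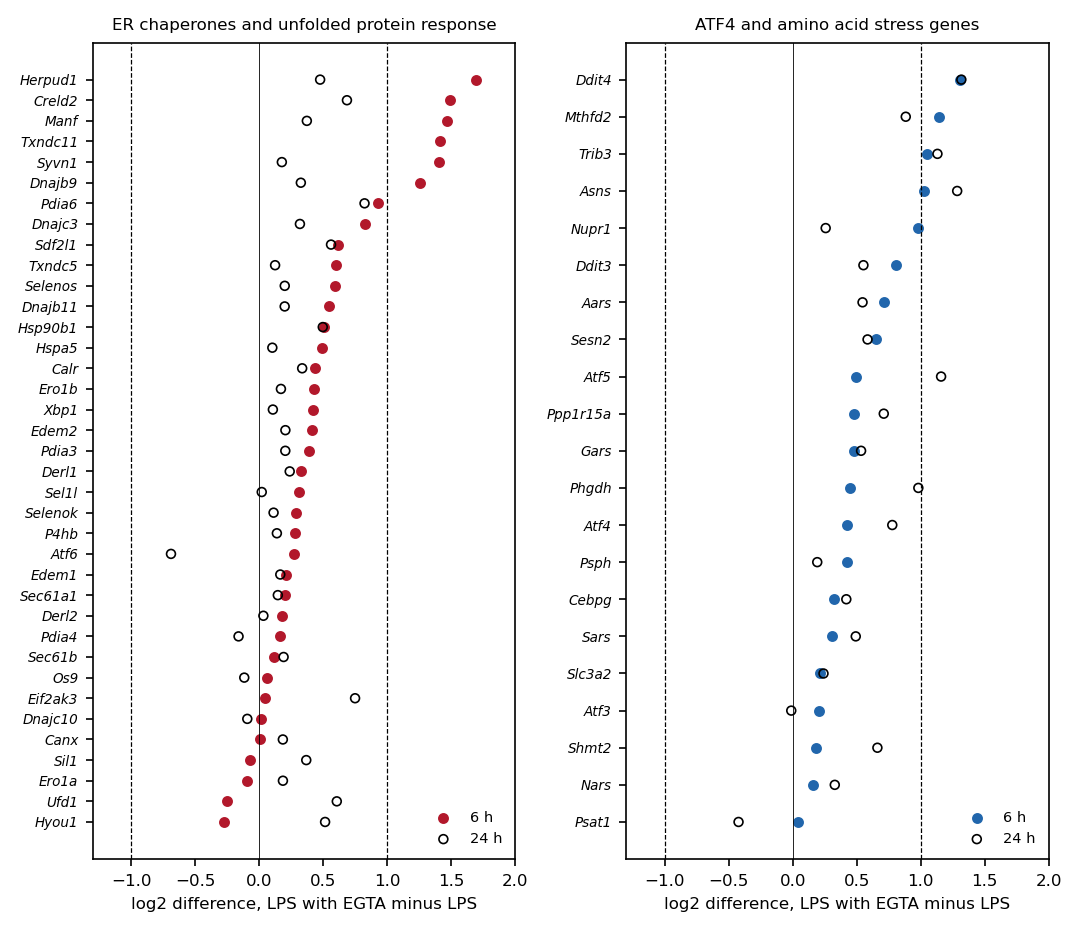
Log2 differences, LPS with EGTA minus LPS alone, for each compared gene of the ER list (left) and the ATF4 list (right), filled at 6 h and open at 24 h, with 1 array in each group. Dashed lines mark 2-fold. After quantile normalization 33 of 37 ER genes and 21 of 21 ATF4 genes lie above 0 at 6 h.

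The promoters of these genes are shown because known elements of ER stress and amino acid stress can be read in them. The windows hold 250 bases before and 50 after the start of the gene from RefSeq (GRCm38.p6), on the gene's strand, and 27025 genes have one. The ER stress element was searched as CCAAT, 9 bases of any kind and CCACG, and its second form as ATTGG, any 1 base and CCACG, on both strands. The capitals mark the match, which is the second form in Herpud1 and the first in Syvn1 and, on the opposite strand, in Creld2. Herpud1 lies at chr8:94386179-94386478 on the plus strand, with the match 52 to 42 bases before the start.
Herpud1: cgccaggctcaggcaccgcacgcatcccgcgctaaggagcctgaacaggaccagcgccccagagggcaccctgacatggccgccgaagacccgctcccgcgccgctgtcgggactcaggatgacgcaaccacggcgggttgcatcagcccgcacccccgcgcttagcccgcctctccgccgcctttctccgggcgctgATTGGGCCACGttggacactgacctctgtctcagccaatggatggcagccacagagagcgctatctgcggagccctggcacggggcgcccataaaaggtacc
Creld2 lies at chr15:88819396-88819695 on the plus strand, with the match 126 to 108 bases before the start.
Creld2: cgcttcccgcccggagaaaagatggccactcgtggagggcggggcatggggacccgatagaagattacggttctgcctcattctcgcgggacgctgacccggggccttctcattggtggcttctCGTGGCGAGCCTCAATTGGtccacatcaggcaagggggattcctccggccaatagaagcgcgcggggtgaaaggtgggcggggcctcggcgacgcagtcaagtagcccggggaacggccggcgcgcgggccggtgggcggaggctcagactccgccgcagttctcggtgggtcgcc
Syvn1 lies at chr19:6046326-6046625 on the plus strand, with the match 44 to 26 bases before the start.
Syvn1: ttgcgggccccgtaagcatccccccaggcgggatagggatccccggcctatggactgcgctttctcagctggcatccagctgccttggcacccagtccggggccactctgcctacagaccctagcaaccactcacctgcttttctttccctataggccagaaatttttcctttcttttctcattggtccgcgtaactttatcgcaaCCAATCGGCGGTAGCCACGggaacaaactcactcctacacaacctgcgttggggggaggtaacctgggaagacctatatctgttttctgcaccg
For the amino acid response element, searched as TGATGNAAN on both strands, the promoter of Asns is given. It lies at chr6:7693160-7693459 on the minus strand, with the match in capitals 23 to 15 bases before the start.
Asns: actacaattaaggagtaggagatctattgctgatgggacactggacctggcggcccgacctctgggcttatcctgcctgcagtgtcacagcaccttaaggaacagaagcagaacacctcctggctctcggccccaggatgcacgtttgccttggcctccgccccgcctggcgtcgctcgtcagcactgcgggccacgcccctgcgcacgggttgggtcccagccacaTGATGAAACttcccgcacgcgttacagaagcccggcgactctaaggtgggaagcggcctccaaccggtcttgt

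Either ER stress element was found in 49 of 27025 genes' windows, or 0.181%. Among the 5570 genes compared at 6 h that have a window it was found in 18, or 0.323%. It was found in 11 of the 31 ER list members that were compared and have a window, or 35.5%. Of these 11, Herpud1, Creld2 and Syvn1 were called higher, and Pdia6, Dnajc3, Hspa5, Hsp90b1, Calr, Canx, Dnajb11 and Ero1b were not. Their differences ran from 0.01 for Canx to 1.70 for Herpud1, so a match did not go with any fixed size of difference. Such lists were compiled from genes known to respond to ER stress, and the element was described in several of these promoters. The amino acid response element was found in 1215 genes' windows (4.5%), and in 148 of the 5570 compared genes (2.66%). It was found in 6 of 20 compared members of the ATF4 list that have a window, which are Aars, Asns, Atf3, Gars, Nupr1 and Trib3. Herpud1 also had a match to it, which is not in capitals above. A match describes letters and does not show binding.

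Relative to the bulk of genes, those of amino acid supply and the ATF4 branch stood higher too. Of 21 compared members 4 were at least 2-fold higher and 0 lower, beside 0.549% and 0.267% of all genes. All 21 lay above 0, beside 50.9% of all genes, and the median was 0.48. As deposited that median was -0.30, 0.49 above the median of all genes, and over the 8 alternatives it lay 0.43 to 0.51 above it. The brightest called members were Asns, which makes asparagine, and Mthfd2, a mitochondrial enzyme of folate metabolism. Asns read 1006 with EGTA and 493 without, 2.04-fold higher, and a second probe set read 664 with EGTA and 386 without. Averaged over its probe sets Asns stood at 0.90. Mthfd2 read 974 with EGTA and 440 without, 2.21-fold higher, and its second probe set 574 with EGTA and 219 without. Among the 8 arrays Asns was highest with EGTA at 6 h, while Mthfd2 was higher still with EGTA at 24 h, at 1064.

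The other called members were dim. Ddit4, an inhibitor of the growth kinase mTORC1, had 139 with EGTA and 56.1 without. The pseudokinase gene Trib3 had 135 with EGTA and 65.2 without, a difference of 1.05. A second Trib3 probe set read 141 with EGTA and 79.0 without (0.84). The gene stood at 0.81 when the arrays of the pair were normalized alone. Close to 2-fold were the stress-induced chromatin protein gene Nupr1, at 1466 with EGTA and 742 without (0.98), and Ddit3, a stress-induced transcription factor, at 930 with EGTA and 533 without (0.80). Unstimulated wild-type cells had 1070 of Ddit3, above both of these arrays. Of the aminoacyl-tRNA synthetase genes Aars stood at 0.72, Gars at 0.48, Sars at 0.31 and Nars at 0.16. Atf4 itself differed by 0.43. Chac1, a glutathione-degrading enzyme that ATF4 induces, was too dim to be compared, at 49.7 with EGTA and at the floor without. Outside the list Aldh18a1, an enzyme of proline synthesis, was 2.46-fold higher, at 298 with EGTA and 121 without, and its second probe set read 198 with EGTA and 83.6 without. Averaged over its probe sets Aldh18a1 stood at 0.87.

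Several of the largest differences with both arrays above the floor lay outside the stress lists. Cxcr4, the receptor for the chemokine Cxcl12, had an intensity of 391 with EGTA and 106 with LPS alone, a 3.68-fold difference. The unstimulated wild-type array read 425, so the EGTA array lay near the resting level and the LPS array far under it. CD14-deficient cells had 510 before LPS and 118 and 127 after 6 h and 24 h of it. Dusp2, a phosphatase that switches off MAP kinases, read 1096 with EGTA and 340 without, 3.22-fold higher, beside 90.9 in unstimulated cells. For Dusp2 the EGTA array thus lay on the same side of the resting level as LPS alone and farther from it.

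Acp5, the tartrate-resistant acid phosphatase known from osteoclasts and macrophages, had 2487 with EGTA and 837 without, 2.97-fold higher. It was the brightest of these increases after Manf, and unstimulated cells had 417. Max, the partner of the Myc transcription factors, read 876 with EGTA and 281 without, 3.12-fold higher and the highest of the 8 arrays. Sgk1, a kinase of ion transport and cell survival, read 1385 with EGTA and 596 without, 2.32-fold higher. CD14-deficient cells with LPS had more Sgk1 than either, at 3183 after 6 h.

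Dimmer increases were the microtubule-binding protein gene Psrc1, at 122 with EGTA and 40.6 without, and the histone gene H2bc22, at 178 with EGTA and 55.9 without. The deubiquitinase gene Usp2 had 127 with EGTA and 53.4 without. Ccl17, a chemokine that attracts T cells, had 287 with EGTA and 133 without, a 2.15-fold difference. The lymphocyte receptor gene Cd244a had 215 with EGTA and 107 without, and the collagen gene Col11a2 had 92.6 with EGTA and 45.2 without. Both fell short of 2-fold when 16 was added in place of the floor, Cd244a at 0.91 and Col11a2 at 0.83. For 9 of the 37 higher genes another probe set was bright enough to be read, all 9 lay in the same direction, and 4 of them were at least 2-fold higher.

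**Figure D3:**
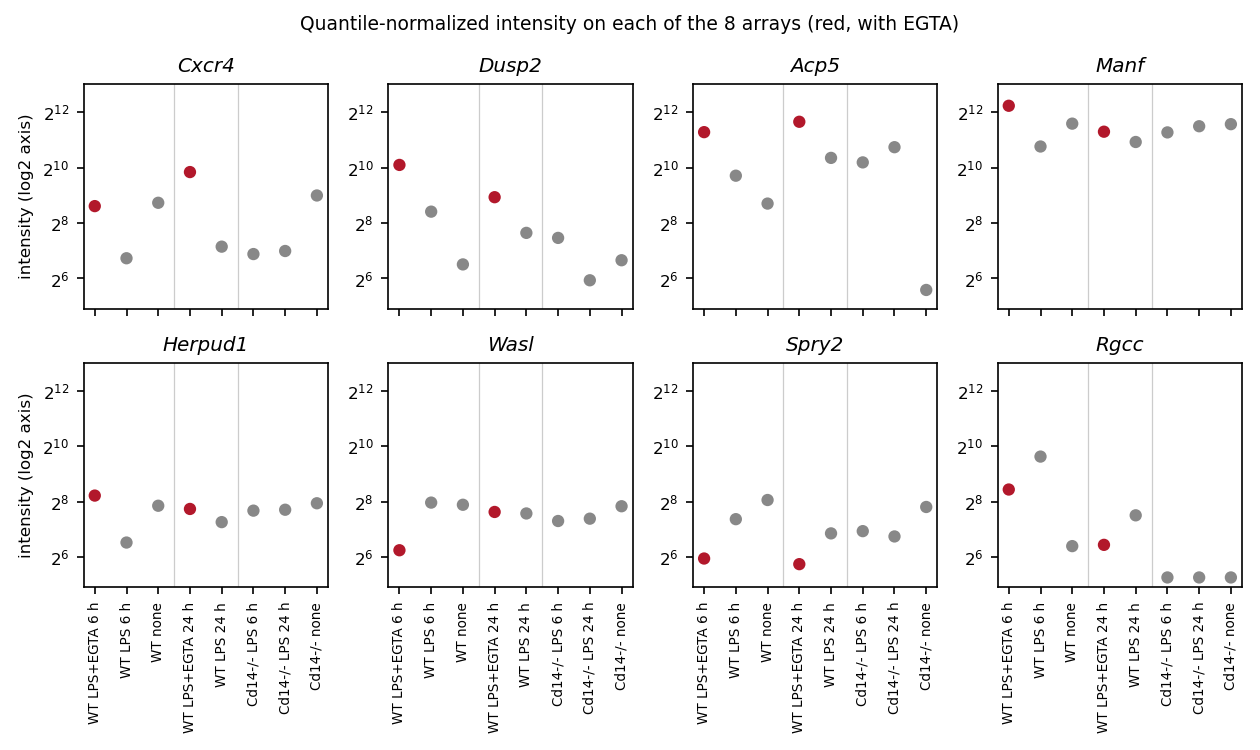
Quantile-normalized intensity (log2 axis) of 8 genes on each of the 8 arrays, in red where EGTA was present. Within each panel the EGTA array stands left of the LPS array of the same time. Cxcr4, Dusp2 and Acp5 are higher with EGTA at 6 h and at 24 h, Spry2 and Rgcc lower at both, and Wasl is low on the EGTA array of 6 h.

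Genes that were lower with EGTA were fewer and dimmer. The median intensity of the brighter array was 144 over the 18 lower genes and 193 over the 37 higher ones, and 1 lower gene exceeded 1000. That gene was Ell2, an elongation factor of RNA polymerase II, at 1322 with EGTA and 2953 without, 2.23-fold lower. Unstimulated cells had 3877, and the EGTA array was the lowest of the 8. Rgcc, a regulator of the cell cycle, read 346 with EGTA and 789 without, 2.28-fold lower, and a second probe set 188 with EGTA and 310 without, with -0.95 averaged over its probe sets. Unstimulated wild-type cells had 84.0 of Rgcc, and all 3 CD14-deficient arrays were at the floor.

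Spry2, an inhibitor of growth factor signalling to MAP kinases, had 61.6 with EGTA and 165 without, 2.68-fold lower, beside 266 in unstimulated cells. Olr1, a scavenger receptor for oxidised lipoprotein, had 65.1 with EGTA and 200 without, and in CD14-deficient cells it had 222 after 6 h of LPS. On the other 5 arrays, unstimulated or at 24 h, Olr1 was at the floor. Wasl, which starts branched actin filaments, had 75.8 with EGTA and 250 without, 3.29-fold lower, while the other 6 arrays lay between 157 and 236. A second Wasl probe set read 208 with EGTA and 265 without, a difference of -0.35, so the probe sets disagreed in size. With the pair normalized alone, where that probe set represents the gene, Wasl stood at -0.36.

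The rest of the lower genes with both arrays above the floor were the zinc finger genes Zfp444, Zfp777 and Zfp275, the ribosomal RNA methyltransferase gene Dimt1, Efcab7, the peroxisomal membrane protein gene Pxmp2, the amino acid transporter gene Slc7a6, the ubiquitin ligase gene Rffl and the sphingomyelin synthase gene Sgms1. Their differences ran from -1.35 for Zfp444 to -1.01 for Sgms1. The brighter of their values reached 240, in Zfp275. With 16 added in place of the floor Zfp777, Zfp275, Slc7a6, Rffl and Sgms1 fell short of 2-fold, between -0.97 and -0.86, and Rffl stood at -0.54 averaged over its probe sets. Of 3 lower genes with a further readable probe set all 3 kept the direction and none reached 2-fold on it.

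In 9 calls the dimmer array lay at the floor, so the difference is a bound. The largest were Zap70, a T cell and natural killer cell kinase, at 211 with EGTA and at the floor without, at least 5.51-fold higher, and Cysrt1, at 113, at least 2.94-fold higher. The Zap70 difference of 2.46 was 1.23 averaged over its probe sets, and the Cysrt1 difference of 1.55 was 3.03 with the floor at the 20th percentile. Zap70 lay between 125 and 270 on the 6 other arrays, so the LPS array at 6 h alone was at the floor. Cd3d, Cd3e and Cd3g, the defining T cell genes, were at the floor on both arrays, and of 11 T and natural killer cell markers, Zap70 among them, 8 were at the floor with EGTA and 10 without. Their summed intensities were 672 with EGTA and 473 without, and 461 with EGTA and 434 without when Zap70 was left out. Lower by a bound were the tubulin gene Tubb2b, at the floor with EGTA and 141 without, at least 3.67-fold, and the zinc transporter gene Slc30a3, at the floor with EGTA and 133 without, at least 3.47-fold. With the floor at the 20th percentile the Slc30a3 difference of -1.80 was -2.54. The other 5 bounds were those of Slc22a18, Mical1 and Cebpa, at least 2.74-, 2.71- and 2.70-fold higher, and of Irak1bp1 and Elp4, lower by a log2 difference of -1.39 and -1.32 at the least.

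The 24 h pair of EGTA with LPS and LPS alone shares no array with the 6 h pair. At 24 h 69 of 6754 genes were higher (1.02%) and 75 lower (1.11%). Of the 37 genes higher at 6 h 30 were compared at 24 h, 26 of them lay above 0 and 11 were called higher (36.7%). Their median at 24 h was 0.69. Over the 6475 genes compared at both times 49.9% lay above 0 at 24 h and 0.788% were at least 2-fold higher. The 11 genes are 21.6% of the 51 genes higher at 24 h that could be compared at 6 h. They were Cxcr4, Dusp2, Psrc1, Acp5, Cysrt1, Ddit4, Sgk1, Trib3, Col11a2, Asns and Cd244a.

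At 24 h Cxcr4 had 916 with EGTA and 142 without, 6.46-fold higher, against the 3.68-fold difference at 6 h. Sgk1 had 3487 with EGTA and 1125 without, and Acp5 3224 with EGTA and 1307 without. Dusp2 had 489 with EGTA and 200 without. For these 4 genes both EGTA arrays exceeded the LPS arrays of their own time, and for Dusp2 and Acp5 they were also the highest pair of the 8 arrays. Max went the other way at 24 h, at 532 with EGTA and 701 without (-0.40).

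Decreases were compared in the same way. Of the 18 genes lower at 6 h 10 were compared at 24 h, 7 lay below 0 and 2 were called lower, beside 1.03% of all genes. Those called were Spry2, at 53.5 with EGTA and 116 without, and Rgcc, at 86.7 with EGTA and 182 without. The median of the 10 at 24 h was -0.29. Spry2 and Rgcc are 2.99% of the 67 genes lower at 24 h that could be compared at 6 h, although 55 of those 67 were also below 0 at 6 h. Wasl stood at 0.05 at 24 h, with 197 with EGTA and 190 without. Whether the effect differed between the times was not tested.

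**Figure D4:**
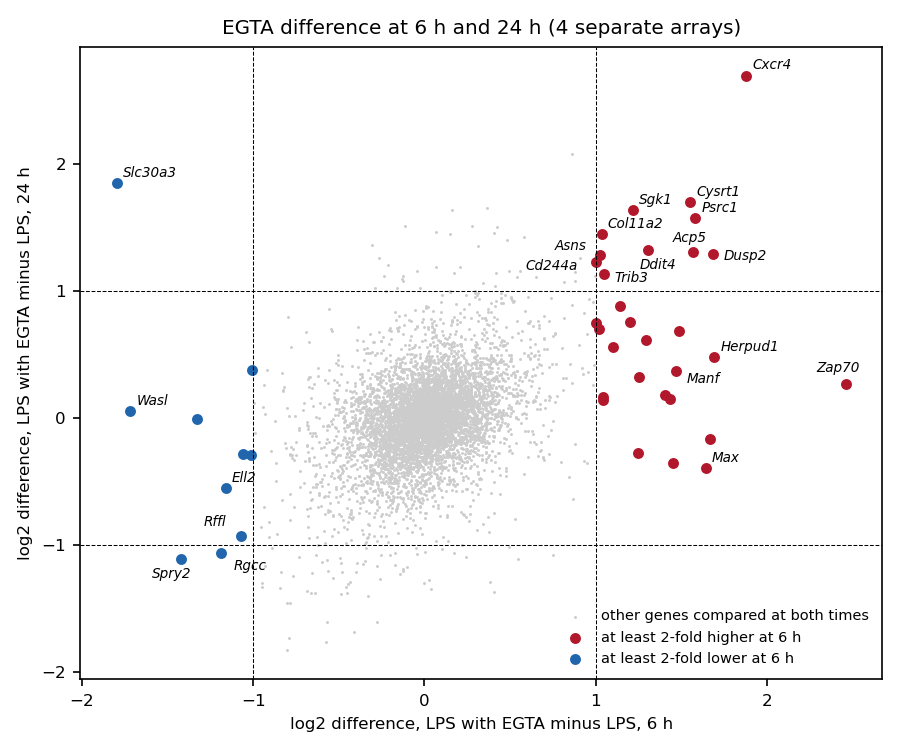
Log2 differences, LPS with EGTA minus LPS alone, at 6 h (horizontal) and at 24 h (vertical) for genes compared at both times. The 4 arrays are separate. Red genes were at least 2-fold higher and blue genes at least 2-fold lower at 6 h, and 11 red genes lie above the upper dashed line.

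Members of the stress lists were also read at 24 h. Over all genes 1.02% were higher and 1.11% lower at 24 h, with a median of 0.002. Of 36 ER list members compared at 24 h none was called, a set that would hold few calls at those shares. Of the 36, 32 lay above 0 at 24 h, beside 49.9% of the genes compared at both times. Their median was 0.19, beside 0.39 at 6 h. Herpud1 had 213 with EGTA and 153 without at 24 h, Manf 2515 with EGTA and 1944 without, and Creld2 1275 with EGTA and 793 without. Of 22 ATF4 list members 5 were higher and 0 lower at 24 h, and 20 lay above 0. The median of these 22 was 0.57, beside 0.48 at 6 h. Asns had 581 with EGTA and 239 without, and Trib3 201 with EGTA and 91.9 without. The difference between the times was not tested for either list.

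None of the 54 genes compared in the calcium channel, binding and kinase lists was called at 6 h. Over all genes 0.549% were higher and 0.267% lower, a share at which a set of this size would hold few calls, so the count does not set these lists apart. Of 14 channel, pump and store sensor genes compared 0 were higher or lower, with a median of 0.06. The store sensor Stim1 had 155 with EGTA and 123 without, a difference of 0.34 that turned to -0.25 when all its probe sets were averaged. The channel subunit Orai1, which Stim1 opens, had 260 with EGTA and 358 without (-0.46). Atp2a2, the pump that fills the ER store, had 2349 with EGTA and 1886 without (0.32), or 0.89 averaged over its probe sets. The calcium-binding proteins of the ER, Golgi and cytosol, 25 in number, had a median of -0.03, and the calcium-responsive kinases and phospholipases, 15 in number, one of 0.19. Among the latter the Ras regulators Rasgrp1 and Rasa4 stood at 0.55 and 0.54.

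Calcineurin, NFAT and their regulators had no called member of 15, with a median of 0.08. Over all genes 0.549% were higher and 0.267% lower, so a list of this size would hold few calls. Of 20 measured genes described as calcineurin-NFAT targets, 10, including Il2, Il4, Ifng and Csf2, did not exceed the floor on any array, and 9 were compared. None of the 9 differed 2-fold, which does not set so short a list apart. Of the 9, 2 lay above 0, beside 50.9% of all genes, and the median was -0.32. Rcan1, an inhibitor of calcineurin that NFAT induces, was lowest, with 837 with EGTA and 1311 without (-0.65). Unstimulated cells had 356 of Rcan1, so it stood above rest on both arrays. The transcription factor gene Egr2 had 88.7 with EGTA and 138 without (-0.64). Ptgs2, the inducible cyclooxygenase, had 1140 with EGTA and 1612 without (-0.50), and Nfatc1 135 with EGTA and 168 without (-0.32). Ikzf1 (0.30) and Gadd45b (0.12) were the members above 0. Relative to all genes this median lay between -0.35 and -0.23 over the alternatives.

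Signalling inhibitors split within their lists. Of 10 MAP kinase phosphatase and Sprouty genes Dusp2 was higher and Spry2 lower, and the median was -0.09. Their relatives Dusp1 and Spred2 stood at 0.04 and -0.61. The list of 21 regulators of G protein signalling holds Rgcc, a cell cycle regulator that does not belong to them, and none of the other 20 was called. Rgs2, which damps G protein signals, stood at -0.94 with 2083 with EGTA and 3986 without, and Ric8a at -0.78, while the median of the 20 was 0.02. Of 22 immediate early transcription factors none was called, with a median of 0.04, and of 12 cAMP-responsive genes none, with a median of -0.13. Over all genes 0.549% were higher and 0.267% lower. At such shares lists of these sizes would hold few calls, so the lack of a call does not set them apart.

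Genes of LPS recognition and the main cytokines differed by less than 2-fold. Cd14, at the floor on all 3 CD14-deficient arrays, had 11088 with EGTA and 12515 without, a difference of -0.17 that turned to 0.30 with equal medians, and Tlr4 957 with EGTA and 892 without (0.10). Of 17 inflammatory cytokines none was called, with a median of -0.12, or -0.0007 with equal medians. Beside shares of 0.549% higher and 0.267% lower over all genes, the lack of a call does not set a list of this size apart. Tnf had 3398 with EGTA and 3802 without, Il1b 3672 with EGTA and 4472 without, and Il10 1894 with EGTA and 2223 without. Larger differences were those of Il6, at 977 with EGTA and 1538 without (-0.65), of the alarmin gene Il33, at 383 with EGTA and 661 without (-0.79), and of the activin subunit gene Inhba, at 150 with EGTA and 250 without (-0.74). Il12b (0.04), Ifnb1 (-0.03) and Cxcl10 (-0.05) were nearly equal, although Cxcl10, at the bright end of the scale, stood at 0.52 with equal medians.

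Of 31 type I interferon response genes none was called at 6 h, and their differences ran from -0.21 for the lowest to 0.48 for Oas3, with a median of 0.05. With arrays scaled to equal medians that median was 0.35, and as deposited it lay 0.33 above that of all genes, so its place near 0 depended on the normalization. The chemokine list moved in the same way, with a median of -0.05 and of 0.20 with equal medians, and Ccl17 was its only called member of 19. Of 23 NF-kB factors and feedback inhibitors none was called, and Rel and Tank stood lowest at -0.78 and -0.66. Of 22 genes of the LPS receptor complex and its adaptors none was called, and of 12 prostaglandin and leukotriene genes none. At 0.549% higher and 0.267% lower over all genes, lists of these sizes would hold few calls, so these counts do not set them apart.

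Genes of cell death and the p53 pathway had a median of 0.22, with no call among 25 and 4 at least 1.5-fold higher, beside 2.74% of all genes. At 2-fold 0.549% of all genes were higher and 0.267% lower, so the lack of a call does not set the list apart. Bcl2l11, which promotes apoptosis, had 2449 with EGTA and 1237 without (0.99), just under 2-fold, and 2473 with EGTA and 1318 without at 24 h. With arrays scaled to equal medians Bcl2l11 stood at 1.03 and was the list's 1 call. The p53-induced gene Trp53inp1 had 704 with EGTA and 383 without (0.88), and Phlda3 257 with EGTA and 141 without (0.86). The initiator caspase gene Casp9 had 269 with EGTA and 160 without (0.75), while the p53 antagonist gene Mdm2 stood at -0.50. As deposited 3 of the list's members were lower and none higher, beside 1353 lower and 2 higher of 6778 genes. The list's median was then -0.54, beside -0.78 over all genes.

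Matrix proteases and their inhibitors had a median of -0.26, with no call among 16. Over all genes 0.549% were higher and 0.267% lower at 6 h. Lists of such sizes would hold few calls, so the lack of a call sets neither this list nor those below apart. The protease inhibitor gene Timp1 had 343 with EGTA and 583 without (-0.77), and the serpin gene Serpinb6b 1575 with EGTA and 2537 without (-0.69). Metallothioneins bind zinc and other metals. Mt2 had 4893 with EGTA and 8446 without (-0.79), Mt1 5612 with EGTA and 8311 without (-0.57), and the zinc transporter gene Slc30a4 1346 with EGTA and 2606 without (-0.95). These are low members of a list of 17 metallothionein and zinc transporter genes, none of which was called, with a median of 0.05 and 9 of 17 above 0. The zinc transporter gene Slc39a7 was its highest member, at 961 with EGTA and 627 without (0.61). At 24 h Mt2 and Mt1 stood at -1.46 and -1.11. The cadherin-family gene Pcdh7 stood at -0.95, or -0.45 averaged over its probe sets, and was the lowest of 22 integrin and adhesion genes. The carbonic anhydrase gene Car2 had 327 with EGTA and 585 without (-0.84), in the osteoclast list that also holds Acp5. The cyclin gene Ccnd2 had 1277 with EGTA and 2393 without (-0.91), the lowest of 34 cell cycle genes, whose median was -0.13. Cholesterol synthesis genes had no call among 19 and a median of 0.02 at 6 h, beside 10 higher of 19 and a median of 1.02 at 24 h. Over all genes 1.02% were called higher at 24 h.

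In all, 25 of the 34 pathway lists had no called member at 6 h, or 26 with Rgcc left out, beside 0.549% of all genes called higher and 0.267% lower. At such shares lists of these sizes would hold few calls, so the lack of a call does not set a list apart. The medians of the 34 ran from -0.32 for the calcineurin-NFAT targets to 0.48 for the ATF4 genes. The lists not described so far without a call held 21 iron, 28 lysosomal, 21 LXR and fatty acid, 25 glycolysis and hypoxia, 19 heat shock, 22 NRF2 and 25 antigen presentation genes, with medians between -0.07 and 0.06. With equal medians the lysosomal, glycolysis and antigen presentation lists stood at 0.25, 0.23 and 0.25, beside 0.03 over all genes. Their place near 0 thus depended on the normalization. The iron, LXR, heat shock and NRF2 lists then stood at -0.02, 0.12, -0.001 and 0.11. Cxcr4 was the called member of 15 chemoattractant and nucleotide receptors, Olr1 of 24 scavenger and lectin receptors and Acp5 of 13 osteoclast genes.

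**Figure D5:**
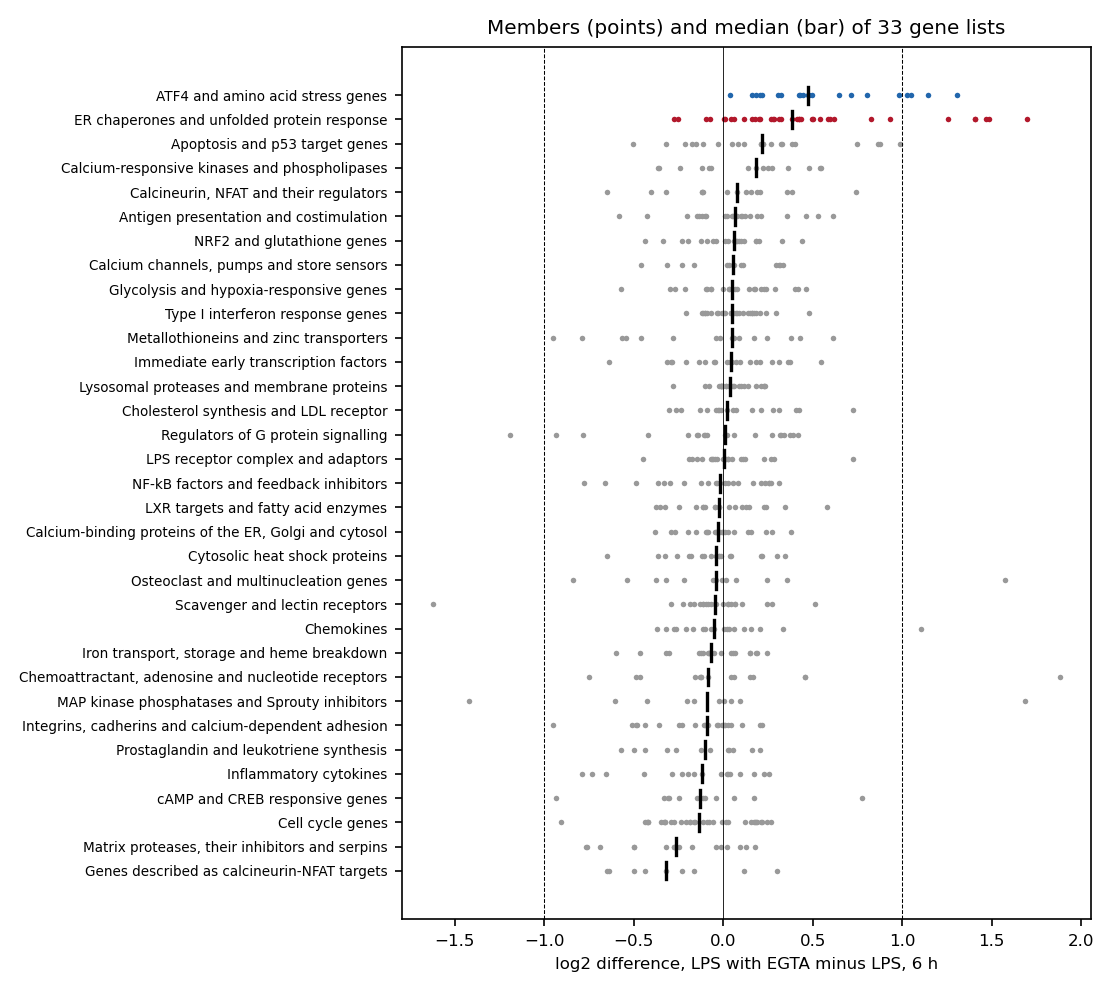
Log2 differences, LPS with EGTA minus LPS alone, at 6 h for the compared members (points) of 33 of the 34 gene lists, ordered by their median (bar), with 1 array in each group. Dashed lines mark 2-fold. The ATF4 and ER lists stand at the top with medians of 0.48 and 0.39. The lowest point of the G protein list is Rgcc.

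The called genes were set beside the LPS response of CD14-deficient cells, 6 h of LPS against unstimulated, whose arrays are not part of the EGTA pair. In that response 714 of 6929 genes were higher (10.3%) and 623 lower (8.99%), with a median of -0.13. Over the 6563 genes compared in both, 10.5% were higher and 7.12% lower. Of the 37 genes higher with EGTA 25 could be compared, of which 4 were higher and 4 lower after LPS, with a median of -0.22. Of the 18 genes lower with EGTA 13 could be compared, and 2 of them, Olr1 and Rffl, were higher after LPS and 0 lower. Among the 8 arrays the EGTA array at 6 h was the highest for 19 of the 37 higher genes (51.4%), beside 10.2% of all genes, and the LPS array at 6 h the lowest for 13 (35.1%), beside 11.5%. Among the 18 lower genes the EGTA array was the lowest for 8 (44.4%), beside 11.2%, and the LPS array the highest for 7 (38.9%), beside 8.9%. The 37 and 18 genes were chosen on these same arrays, so these shares describe them and are no independent evidence. A difference of a pair can come from either array, and with 1 array in each group this cannot be told apart.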

How the data were processed

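Total RNA of 8 samples was labelled from 0.3 µg each and hybridised to Affymetrix arrays, 1 for each group. The deposited values are linear intensities of 22690 probe sets that the authors made with MAS5, per the submitters' processing notes. Its version, scaling target and detection calls are not given in the sources used here.

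Because trimmed means differed, the deposited intensities were quantile normalized over the 8 arrays with Python 3.11.15, numpy 2.4.6 and pandas 2.3.3, which removes any shift of all genes together. They were floored at the 40th percentile before log2 was taken. Folds against the floor are bounds, given as "at least". Of the probe sets 20393 had 1 gene in the platform annotation, 691 had several and were left out, and 1606 were unlisted and stayed unnamed. Symbols were updated from RefSeq by gene ID for 20364. For each gene the probe set of highest mean log2 over the arrays was used. The steps were tested on simulated data with differences planted in bright genes only, so the recovery of differences in dim genes was not covered. The number of arrays limits the precision.

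Genes were named if they were among the 15 largest increases or decreases with both arrays above the floor, called in a list or among its 2 largest differences, called the same way at both times, among the 2 largest bounds in each direction, or in a fixed set of LPS, calcium and stress genes. Other genes given with values were chosen after their values were seen. The comparison, its members and the 34 gene lists were chosen with earlier results of these data known. Of 1023 genes in the 34 lists and 7 marker lists 898 were measured, and 125 were not analysed here. The result of 1 pathway list is not reported here. Alternatives were 3 other scalings, 2 other floors, 2 other filters and the mean over probe sets.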

Additional observations from a re-analysis of the deposited data

Results flagged for a closer look

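Slc30a3, a zinc transporter gene, differed in opposite directions at the 2 times. Its log2 difference, EGTA with LPS minus LPS alone, was -1.80 at 6 h, with the EGTA array at the floor and the LPS array at 133. At 24 h it was 1.84, with the EGTA array at 138 and the LPS array at the floor. Both are bounds on dim values, and the difference between the times was not tested. On the remaining arrays it had 57.9 in unstimulated wild-type cells, and 73.5, 113 and 137 in CD14-deficient cells at 0, 6 and 24 h of LPS.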

How the results depend on the processing

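Of the 37 higher and 18 lower genes, those that could be compared kept their direction under each of 8 alternatives, 24 and 18 of them as deposited, 11 and 2 above the 75th percentile, and at least 32 and 12 under the others. For the 2 other filters, which change no value, this was fixed in advance. It was nearly so as deposited, where the shift of -0.78 is smaller than the called log2 difference of 1. The other higher genes did not pass the brightness filter as deposited. The balance of calls turned from mostly higher to nearly all lower as deposited. The 37 higher and 18 lower genes became 35 and 19 with equal medians, 34 and 17 with the pair normalized alone, and 35 and 18 with the floor at the 20th percentile. As deposited they were 2 and 1353, with 1 and 31 called the same way at 24 h in place of 11 and 2. By construction these follow the median of all genes at -0.78. Relative to it 23 were higher and 15 lower, among them 21 and 13 of the genes called above. With every gene above the floor compared, 42 were higher and 27 lower, and 6 were lower at both times. With 16 added in place of the floor, 27 and 13 were called, and 0 were lower at both times. Over the 3625 genes above the 75th percentile, a smaller set by construction, 11 were higher and 2 lower, with 4 and 0 the same way at 24 h. Averaged over probe sets, 27 were higher and 11 lower, with 6 and 0 at both times. The cause was not tested for the last setting. The median difference from all genes moved for the chemokines to 0.17 as deposited, for the interferon genes to 0.33 as deposited and 0.32 with equal medians, and for the calcium-responsive kinases to -0.07 above the 75th percentile. For the lysosomal, glycolysis and antigen presentation genes it was 0.23, 0.21 and 0.23 as deposited, beside 0.03, 0.05 and 0.06.

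No paired analysis was possible because each group has 1 array and no result comes from a test. Depth cannot be stated for arrays, and dim genes scatter most. Between intensities of 88.2 and 200 the central 95% of differences spanned -0.77 to 0.78, and above 1000 it spanned -0.47 to 0.45.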
